A study of Mus musculus with 27 samples.

Results

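The Hedgehog pathway was followed through 8 genes in mouse cells on their way from embryonic stem cells to Sertoli-like cells. The members were chosen as genes of the pathway and matched by symbol, and all 8 were found once each among the 48795 genes listed per library. They are the ligands Shh and Ihh, the receptor Ptch1, the ligand-binding inhibitor Hhip, the signal transducer Smo and the transcription factors Gli1, Gli2 and Gli3. On GRCm38, Shh lies at chr5:28456815-28467256, Ihh at chr1:74945315-74951672, Ptch1 at chr13:63508328-63573598 and Gli1 at chr10:127329882-127341974. Gli2 lies at chr1:118834132-119053619, Gli3 at chr13:15463235-15730026, Smo at chr6:29735503-29761365 and Hhip at chr8:79965851-80058006. All 8 are annotated as protein coding, Gli3 and Smo on the plus strand and the others on the minus strand.

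RNA from 27 libraries was sequenced, 3 in each of 9 groups, and every group came from 1 clone of XY mouse embryonic stem cells, clone 7 of a C57BL/6 x CBA F1 line. All cells carried the Tesco-CFP reporter and the R26-rtTA allele, so the groups of untreated cells shared both with the treated ones. ESC libraries came from stem cells taken out of 2i and LIF and passaged in medium with knockout serum replacement and LIF. EpiSC cells had 60 h of bFGF at 12 ng/ml and Activin A at 20 ng/ml with serum replacement, and M cells, early mesoderm, had 36 h of bFGF at 20 ng/ml, BMP4 at 10 ng/ml and the phosphatidylinositol 3-kinase inhibitor LY294002 at 10 µM. All 5 IM media, meant to give intermediate mesoderm, held bFGF at 5 ng/ml and BMP4 at 20 ng/ml. IM1 had nothing further. Retinoic acid at 100 nM was added in IM2, IM3, IM4 and IM5, Activin A at 10 ng/ml in IM2 and IM5, and CHIR99021, an inhibitor of glycogen synthase kinase, at 0.3 µM in IM4 and IM5. The iSLC cells, induced Sertoli-like cells, were IM3 cells given doxycycline-inducible Nr5a1 and Dmrt1 by lentivirus. They were kept for further days with doxycycline in a Sertoli cell medium, which held Activin A among other additions, and sorted for CFP. The contribution of the factors, doxycycline, the medium with its Activin A, the added time in culture and the sort to a difference between iSLC and IM3 cannot be told apart. The libraries of a group are described as biological replicates of the same clone, and no label says whether they came from separate cultures. The p-values measure the spread between these libraries.

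Hedgehog ligands are secreted proteins that bind the receptor Patched. Without ligand, Patched holds Smoothened inactive and Gli3, with some Gli2, is processed into a repressor. With ligand, Smoothened acts through the primary cilium and Gli2 and Gli3 act as activators, and Gli1, Ptch1 and Hhip are themselves widely used transcriptional targets. In the fetal testis, Dhh from Sertoli cells signals to Ptch1 on the interstitial cells that give rise to Leydig cells.

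Totals of expected counts ran from 35923040 to 84876603 per library. Summed TPM (a transcript level per length, scaled to a fixed total per library) of 4 stem cell markers was 620 to 627 in ESC and at most 35.6 in every library from M on. That of 6 Sertoli markers was 312 to 356 in iSLC and at most 62.6 elsewhere. It includes Nr5a1 and Dmrt1, given to iSLC by lentivirus, whose mean TPM there was 93.8 and 213. Of the others, Cldn11 was 7.05 in iSLC and 0.483 in IM3, and Amh 0.56 and 0.44. Sox9, at 24.8 in iSLC and 40.0 in IM3, and Cst9, at 1.5 and 4.41, were lower in iSLC. Summed TPM of 6 genes of adult red blood cells was 11.7 to 91.0 in ESC, M and the IM3 and IM4 cultures and 1.57 to 4.54 in those of EpiSC, IM1, IM2, IM5 and iSLC. The same groups separated by the trend of counts with GC content, the log2 difference between the GC-rich and GC-poor ends, at -0.515 to -0.091 in the first 4 and -0.087 to 0.613 in the other 5. No condition had libraries on both sides. A difference between 2 groups on opposite sides cannot be told apart from that of culture. This touches each comparison of 2 groups made here except IM3 against M, IM4 against IM3 and IM5 against IM2. It touches the pooled comparison of IM2 and IM5 with IM3 and IM4 too.

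RefSeq promoter sequences, taken from GRCm38.p6, matched 6 of the 8 members, leaving out Shh and Gli1. The 250 bases upstream of the start are shown for 3 members with different courses, with CG dinucleotides in capitals. Ihh appeared at the IM stage, Smo rose toward iSLC and Hhip was highest in ESC. The windows are chr1:74951673-74951922 on the minus strand, chr6:29735247-29735496 on the plus strand and chr8:80058009-80058258 on the minus strand. Each lies outside the annotated bounds of its own gene, and overlap with exons of other genes was not tested.
Ihh: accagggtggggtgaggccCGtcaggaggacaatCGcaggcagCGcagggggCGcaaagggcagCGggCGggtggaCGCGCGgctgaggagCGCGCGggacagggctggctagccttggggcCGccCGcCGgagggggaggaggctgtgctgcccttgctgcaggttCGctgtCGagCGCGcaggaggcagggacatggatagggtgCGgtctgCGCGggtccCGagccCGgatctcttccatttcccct
Smo: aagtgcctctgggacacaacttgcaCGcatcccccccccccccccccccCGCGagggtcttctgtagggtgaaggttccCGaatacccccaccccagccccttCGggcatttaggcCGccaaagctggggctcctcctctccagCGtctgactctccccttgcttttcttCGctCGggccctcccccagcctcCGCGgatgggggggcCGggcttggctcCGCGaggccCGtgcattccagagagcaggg
Hhip: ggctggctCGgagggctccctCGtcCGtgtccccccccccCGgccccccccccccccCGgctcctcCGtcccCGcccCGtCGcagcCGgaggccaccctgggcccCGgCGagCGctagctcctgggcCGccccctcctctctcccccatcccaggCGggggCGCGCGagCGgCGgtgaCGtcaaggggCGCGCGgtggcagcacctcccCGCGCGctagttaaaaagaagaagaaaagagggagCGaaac
The Ihh window held 24 CG dinucleotides at 72.0% GC, the Smo window 15 at 68.4% and the Hhip window 28 at 76.0%, against medians of 6 and 52.4% over 32851 promoters, of which 92.1% held at least 1. The Gli binding motif GACCACCCA and its core CCACCCA, which lies within it, were searched on both strands from 250 bases before to 50 after the start. Neither was found in any of the 6 members, and over all promoters 0.253% held the first and 9.3% the second. For the members 1 start per gene was searched in this way. The windows of Ptch1, chr13:63565686-63565985, and Gli3, chr13:15463473-15463772, lay within the annotated genes. The exact search thus did not cover the annotated 5' ends of Ptch1 and Gli3. With 1 mismatch allowed, a search added after the exact one, 6.74% of all promoters and 0 of the 6 members held the longer motif.

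The 2 ligands among the members followed different courses, and both were low. Shh TPM was 1.13, 1.06 and 0.89 in EpiSC, 0.63, 0.51 and 0.54 in M, and 0.21, 0.05 and 0.09 in ESC. In the IM groups it ran from 0.11 to 0.44. The iSLC libraries held 0, 3 and 0 Shh counts, at or under a floor of 3 counts, so Shh was not detectable there at this depth. EpiSC and M stood above all other groups without overlap, while the neighbours from IM1 down to ESC overlapped. On the other strand, 28.3% of Shh exon bases overlap 9530036O11Rik and Gm26894, and since the use of strand in counting is not stated, the low Shh values are uncertain.

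Ihh was almost absent until the IM stage. Its TPM was 0.53, 0.31 and 0.56 in ESC, 0.43, 0.52 and 0.56 in EpiSC, and 0.31, 0.36 and 0.26 in M. It was 5.18, 6.66 and 5.63 in IM1, 4.65, 5.99 and 6.20 in IM2, and 7.49, 7.30 and 6.37 in IM5. IM3 had 4.01, 3.83 and 3.37 and IM4 had 4.94, 4.56 and 4.70. Every IM library thus lay above every library of the earlier stages. The iSLC libraries, at 0.82, 0.46 and 0.38, overlapped those of EpiSC and ESC. The order of the means was IM5, IM1, IM2, IM4 and IM3, and IM4 was the first of these to lie wholly above its lower neighbour. The summed TPM of 7 endoderm markers was 335 to 784 in the IM libraries, 8.38 to 44.4 in those of the earlier stages and 10.5 to 17.7 in iSLC, with none of the 7 at 0 in all libraries of a group. Among them, mean TPM of the secreted liver and yolk sac proteins Afp, Apoa1 and Ttr was 74.8, 217 and 68.3 in IM3. The transcription factor Hnf4a was also higher in the IM groups, with means of 6.91 to 8.68. Its means were 0.43 to 1.05 in the earlier stages and 0.437 in iSLC. Foxa2, Foxa1 and Sox17 of the list did not follow the sum. Foxa2 was 30.2 in EpiSC and 2.99 to 6.75 in the IM groups, and Foxa1 1.41 and 0.943 to 2.06. Sox17 was 8.79 in EpiSC, 3.85 in IM3 and 24.1 in IM1. The part of endoderm cells in the Ihh values was not tested. In bulk RNA fewer cells of a type cannot be told apart from less RNA per cell.

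Dhh, the Hedgehog ligand of Sertoli cells, is no member but completes the ligands. Its TPM was 2.38, 1.53 and 1.68 in iSLC, 2.07, 2.84 and 2.67 in IM2, 1.68 to 2.33 in IM1 and 1.45, 1.79 and 1.54 in IM5. IM3 had 0.66, 0.72 and 0.72, IM4 had 0.68, 0.46 and 0.71, and earlier stages had at most 0.24. The iSLC libraries lay above those of IM3 and IM4 but overlapped those of the other 3 IM groups. Of the summed TPM of Shh, Ihh and Dhh, Shh made up 62.0 ± 5.37% in EpiSC and 61.5 ± 3.25% in M (SD, n = 3). Ihh made up 66.2 ± 0.934% to 84.7 ± 2.23% in the IM groups, and Dhh made up 77.2 ± 3.81% in iSLC against 15.3 ± 1.55% in IM3. The sum itself was 4.6 ± 0.271 in IM3 and 2.43 ± 0.670 in iSLC. The exons of Dhh overlap those of Gm49442 on the other strand by 25.2% and those of Rhebl1 on the same strand by 12.4%, so its level is uncertain.

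Ptch1, the ligand receptor and a target of the pathway, was highest in stem cells. Its TPM was 125, 108 and 123 in ESC, 30.9, 30.1 and 29.5 in EpiSC and 23.7, 20.3 and 25.8 in M. It was 10.4 to 11.8 in IM1 and IM3, 9.71 to 11.2 in IM4, 8.31 to 8.75 in IM2, 6.78 to 8.13 in IM5 and 6.02 to 7.16 in iSLC. The first 3 stages were separate from each other and from all later groups, and the mean of ESC was 18.1-fold that of iSLC. IM1, IM3 and IM4 overlapped in turn, and so did IM5 and iSLC.

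Hhip, a membrane protein that sequesters ligand, had the widest range of the members with a measurable level in every group. Its TPM was 1.87, 1.92 and 2.14 in ESC, 0.10, 0.19 and 0.15 in EpiSC and 0.11, 0.05 and 0.12 in M. It was 0.41, 0.41 and 0.42 in IM1 and 0.61 to 1.14 in the other 4 IM groups. The iSLC libraries had 0.06, 0.05 and 0.03, from 15, 13 and 9 counts. The course therefore went down, up in the IM media and down again. IM1 lay below the other IM groups, and EpiSC, M and iSLC overlapped in turn. The effective length that RSEM used for Hhip varied from 4928 to 8882 bases between libraries, which changes TPM but not counts.

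Smo, the transducer that Patched inhibits, was lowest in ESC and highest in iSLC. Its TPM was 25.8, 24.6 and 26.5 in ESC, 51.4, 54.4 and 50.7 in EpiSC and 81.0, 79.7 and 83.7 in M. The IM libraries ran from 66.3 to 78.4, and iSLC had 119, 119 and 118. Within each library the TPM of Smo over that of Ptch1 was 0.217 ± 0.0108 in ESC, 1.73 ± 0.072 in EpiSC, 3.53 ± 0.346 in M, 6.43 ± 0.238 to 9.48 ± 0.92 in the IM groups and 18.2 ± 1.43 in iSLC. No library of one of these 5 stages overlapped the ratios of another.

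**Figure D1:**
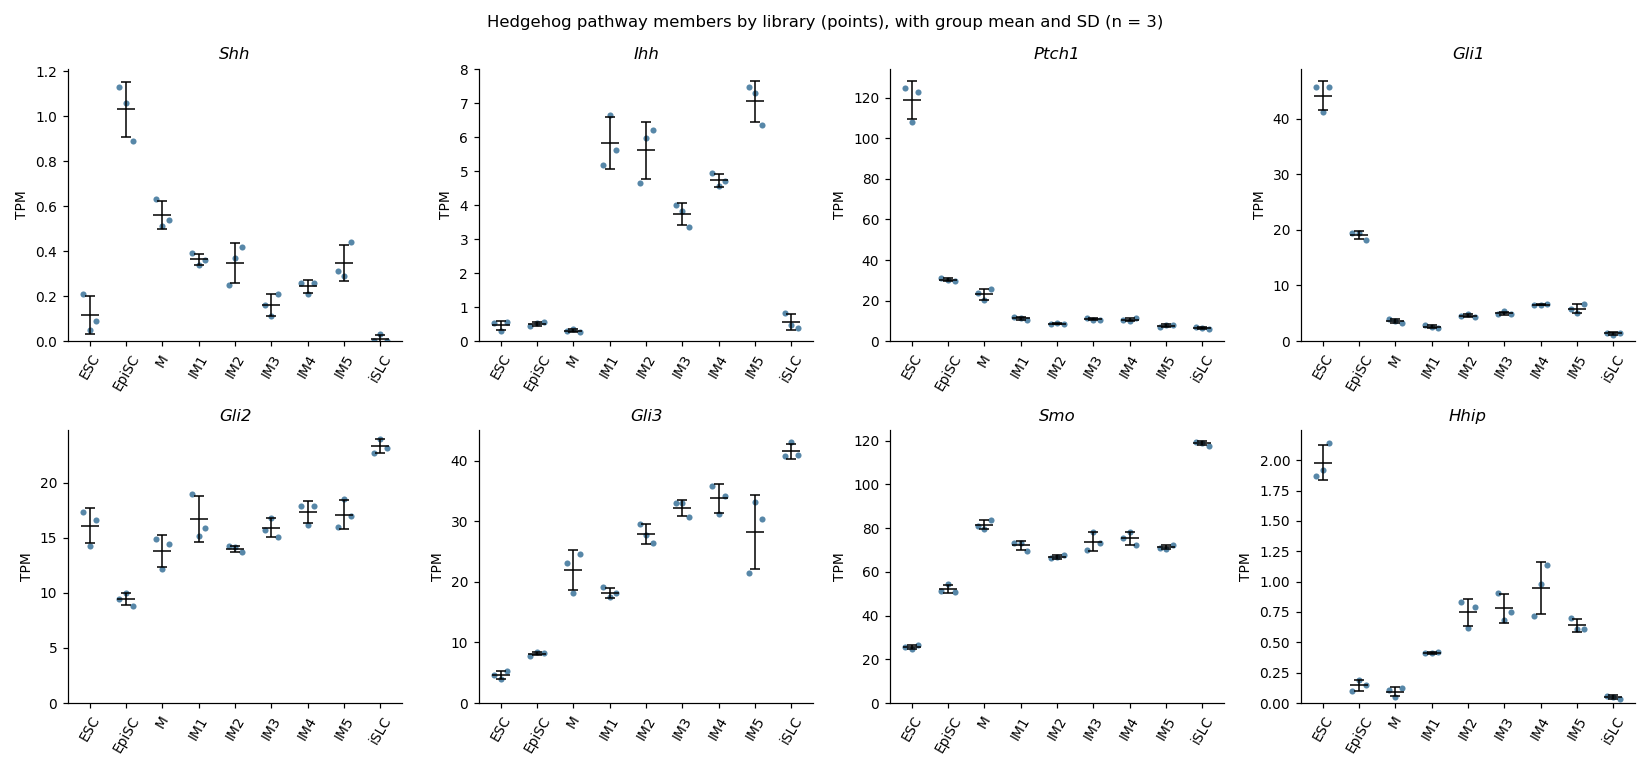
TPM of the 8 members (vertical axis, linear from 0, 1 panel per gene) in the 27 libraries by group, with points for libraries and bars for the mean and SD (n = 3). Ptch1 and Gli1 are highest in ESC, Smo and Gli3 are highest in iSLC, and Ihh is at least 3.37 in the 15 IM libraries and at most 0.82 in the others.

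Gli1, the factor whose transcription is the usual readout of the pathway, was high in pluripotent cells. Its TPM was 45.6, 41.1 and 45.7 in ESC, 19.5, 19.5 and 18.2 in EpiSC and 3.98, 3.53 and 3.26 in M. IM1 had 2.97, 2.45 and 2.39, IM2 had 4.53, 4.81 and 4.27, IM3 had 4.89, 5.34 and 4.84, IM4 had 6.50, 6.41 and 6.58, and IM5 had 5.80, 5.01 and 6.61. The lowest libraries were those of iSLC, at 1.53, 1.15 and 1.42. ESC and EpiSC stood apart from all later groups, and only IM4, IM5 and IM3 overlapped a neighbour in the order. On the other strand, 6.55% of Gli1 exon bases overlap Arhgap9 and Gm47200.

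Gli3, the main source of the repressor form, was lowest in ESC and highest in iSLC. Its TPM was 4.69, 4.00 and 5.24 in ESC, 7.80, 8.36 and 8.28 in EpiSC and 23.0, 18.2 and 24.6 in M. IM1 had 17.4 to 19.1, overlapping M, and the other IM groups 21.5 to 35.9. The iSLC libraries were highest at 40.8, 43.1 and 41.0. One IM5 library, replicate 1 at 21.5, lay below the other IM5 libraries at 33.2 and 30.3. Gli2, mainly an activator, stayed within a narrow range, from 8.84, 9.46 and 9.94 in EpiSC to 22.7, 24.0 and 23.2 in iSLC, a ratio of means of 2.48.

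Of the summed Gli TPM, Gli1 made up 68.1 ± 0.994% in ESC, 52.1 ± 0.838% in EpiSC, 9.21 ± 1.37% in M and 2.07 ± 0.343% in iSLC (SD, n = 3). Gli3 made up 7.14 ± 0.542%, 22.3 ± 1.11%, 55.6 ± 2.31% and 62.8 ± 0.343% in the same groups. Gli2 was between 24.8 ± 0.813% and 44.4 ± 1.64% in every group. TPM of Gli3 over that of Gli1 was 0.105 ± 0.00891 in ESC and 31.0 ± 5.69 in iSLC. The sum of the 3 was 64.9 ± 4.72 in ESC and 66.3 ± 1.68 in iSLC, a difference smaller than the spread between replicates, while the main factor within the sum was another. These are transcript levels, and the processing of Gli proteins was not measured.

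**Figure D2:**
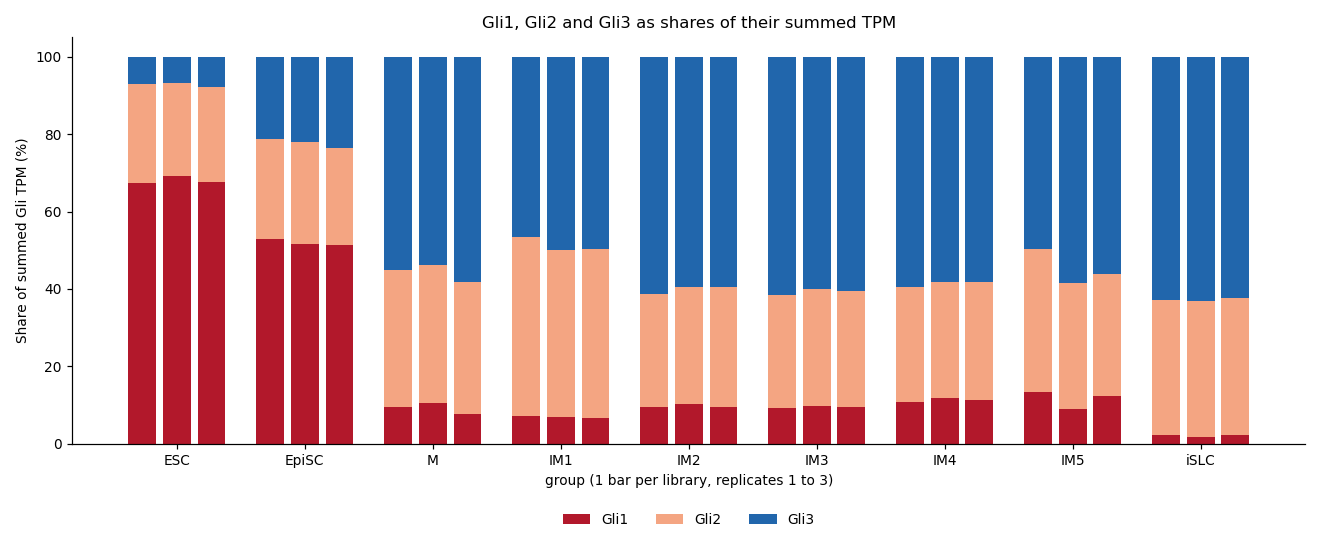
Shares of Gli1, Gli2 and Gli3 in their summed TPM (percent, stacked to 100) with 1 bar per library, 3 per group. Gli1 is at least 51.5% in the 6 libraries of ESC and EpiSC and at most 13.4% in the others, where Gli3 is the largest share.

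**Figure D3:**
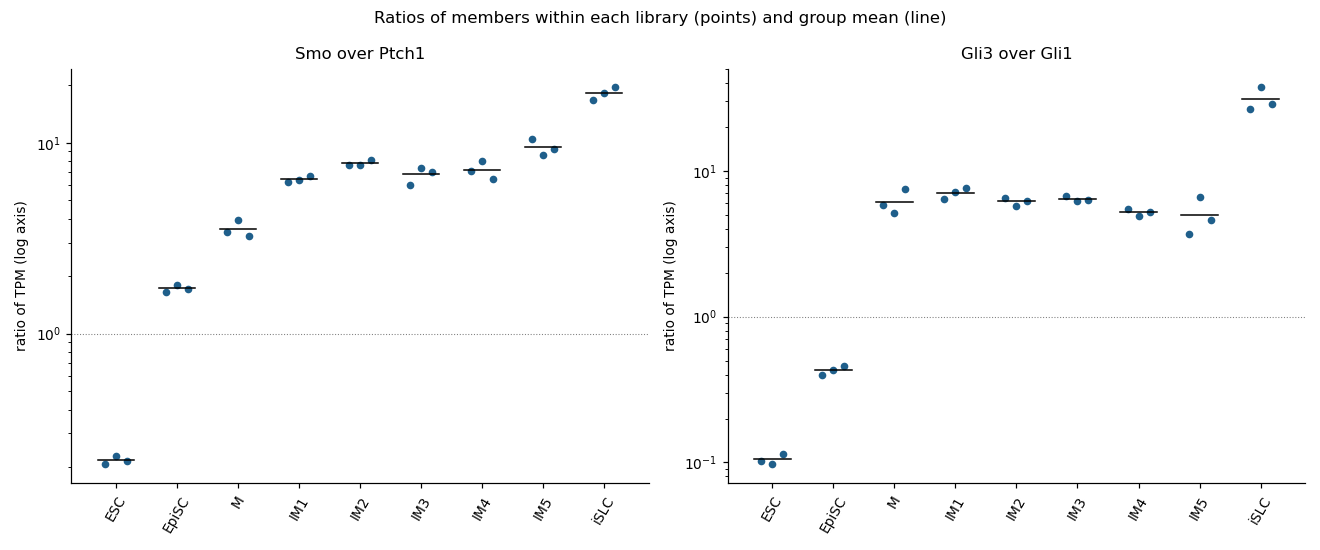
Ratio of TPM within each library, Smo over Ptch1 on the left and Gli3 over Gli1 on the right, on log axes, with a line at the mean of each group and a dotted line at 1. Both ratios are lowest in ESC (means of 0.217 and 0.105) and highest in iSLC (18.2 and 31.0).

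Differences between groups were tested on the expected counts with edgeR's quasi-likelihood test in 1 model over the 27 libraries, with Benjamini-Hochberg adjustment over 20839 genes. A gene was called where the adjusted p was at most 0.01, the fold at least 2 and the mean normalized count at least 100, over all libraries and in a compared group. All 8 members entered the test. Shh, with a mean of 35.5 normalized counts, could not be called at all.

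From ESC to EpiSC, Hhip, Ptch1 and Gli1 fell and Smo rose. On the log2 scale Hhip fell by 3.71 (SE 0.152, edgeR adjusted p 4.57e-17), Ptch1 fell by 1.92 (SE 0.0595) and Gli1 fell by 1.17 (SE 0.0868), and Smo was higher by 1.06 (SE 0.0498, edgeR adjusted p 8.8e-16). With 1 member called higher and 3 lower, the background was 3.75% of genes higher and 4.32% lower. With an offset for GC content the Smo difference was 0.97, under the fold minimum. The members' median log2 difference was -0.25 and that of all genes 0.00.

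From EpiSC to M, Gli1 fell by 2.48 (SE 0.0972, edgeR adjusted p 6.1e-18) and Gli3 rose by 1.40 (SE 0.0839). That is 1 member higher and 1 lower, where 6.79% of genes were called higher and 7.72% lower. Ptch1, at -0.45, was under the fold minimum here, so the 2 targets differed in size of change: their TPM ratio, Ptch1 over Gli1, was 1.58 ± 0.0393 in EpiSC and 6.53 ± 1.19 in M. The median was -0.42 over the members and -0.06 over all genes.

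The steps from M to IM1 and from M to IM3 share the M libraries and are given side by side. Ihh rose by 4.17 (SE 0.204) in IM1 and by 3.50 (SE 0.212) in IM3. Ptch1 fell by 1.13 (SE 0.0597) in IM1 and by 1.27 (SE 0.0609) in IM3. Hhip rose by 2.69 (SE 0.168) in IM3, and differed by 1.77 in IM1, where its mean was under the count minimum. In IM1, 1 member was called higher and 1 lower, against 9.72% and 5.94% of genes. In IM3, 2 were higher and 1 lower, against 9.26% and 5.66%. The median difference over the members was -0.36 in IM1 and 0.15 in IM3, and over all genes it was 0.00 in both. Gli1 was at -0.57 (SE 0.105) in IM1 and 0.29 (SE 0.104) in IM3, under the fold minimum in both. Of the targets, Ptch1 thus fell in both media while Hhip rose in IM3, and Gli1 was not called.

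The effect of single additions within the IM stage was smaller, and no member was called in any of these comparisons. For retinoic acid, IM3 against IM1, 0 of 8 were called by edgeR and 0 by DESeq2, where 2.62% of genes were higher and 3.72% lower. An unadjusted edgeR p under 0.05 was found for 7 of 8 members and for 11600 of the 20839 genes tested. Without the fold minimum 4 of 8 members passed, where 34.5% of genes did. These were Hhip at 0.92 (SE 0.14), Gli1 at 0.86 (SE 0.104) and Gli3 at 0.80 (SE 0.0817), higher with retinoic acid, and Ihh at -0.67 (SE 0.151). With the GC offset the Gli1 difference was 1.10 and passed the fold minimum, and the Ihh difference was -0.23 (edgeR adjusted p 0.14).

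For Activin A without CHIR99021, IM2 against IM3, 0 members were called by edgeR and 0 by DESeq2, where 2.46% of genes were higher and 1.34% lower. An unadjusted edgeR p under 0.05 was found for 6 members and for 9941 of all genes tested. Without the fold minimum 2 passed, Ihh at 0.53 (SE 0.153) and Ptch1 at -0.33 (SE 0.0616), where 26.1% of genes did. For Activin A with CHIR99021, IM5 against IM4, the calls were again 0 by edgeR and 0 by DESeq2, where 2.63% of genes were higher and 1.46% lower. The unadjusted edgeR p was under 0.05 for 4 members and for 11036 of all genes tested. Here 4 passed without the fold minimum, where 31.8% of genes did. Ihh was at 0.61 (SE 0.147), Hhip at -0.83 (SE 0.135), Ptch1 at -0.43 (SE 0.0613) and Gli3 at -0.28 (SE 0.0808). Ptch1 was lower with Activin A in both settings by under 2-fold, at -0.31 and -0.39 with the GC offset. The Ihh differences were 0.14 and 0.12 with that offset and passed in neither setting.

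CHIR99021 did not cross the partition in red blood cell genes. For IM4 against IM3, 0 members were called by edgeR and 0 by DESeq2, where 0% of genes were higher and 0.101% lower. An unadjusted edgeR p under 0.05 was found for 3 members and for 2517 of all genes tested. Without the fold minimum 0 members passed, where 0.945% of genes did, and Gli1 was nearest at 0.41 (SE 0.0998, edgeR adjusted p 0.0244). For IM5 against IM2, 0 members were called by edgeR and 0 by DESeq2, where 0.0432% of genes were higher and 0.192% lower. The unadjusted edgeR p was under 0.05 for 5 members and for 4586 of all genes tested. Gli1 at 0.42 (SE 0.0975, edgeR adjusted p 0.00638) and Gli2 at 0.38 (SE 0.0644, edgeR adjusted p 0.000235) were the 2 that passed without the fold minimum, where 3.88% of genes did. The interaction of Activin A and CHIR99021 called 0 members by edgeR and 0 by DESeq2, where 0.0096% of genes were higher and 0.024% lower. Its unadjusted edgeR p was under 0.05 for 2 members and for 2191 of all genes tested. The member with the smallest p was Hhip at -0.73 (SE 0.191, edgeR adjusted p 0.0786).

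The Gli1 share of the summed Gli TPM was compared over 12 libraries. It was 9.12 to 9.68% in IM3, 9.36 to 10.3% in IM2, 10.8 to 11.9% in IM4 and 8.84 to 13.4% in IM5. With CHIR99021 the mean was 11.4 ± 1.55% and without it 9.61 ± 0.395% (SD, n = 6 each), a difference of 1.80 percentage points (exact permutation test, two-sided, p = 0.0238, Benjamini-Hochberg adjusted over the 2 factors 0.0476). The call rested on all libraries being kept. With 1 of the 12 left out in turn the adjusted p was over 0.05 for 11 and 0.00866 without IM5 replicate 2, which had the lowest share, and the difference ran from 1.40 to 2.32. With Activin A the mean was 10.6 ± 1.81% and without it 10.4 ± 1.09%, a difference of 0.248 points (exact permutation test, two-sided, p = 0.775), which did not pass.

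**Figure D4:**
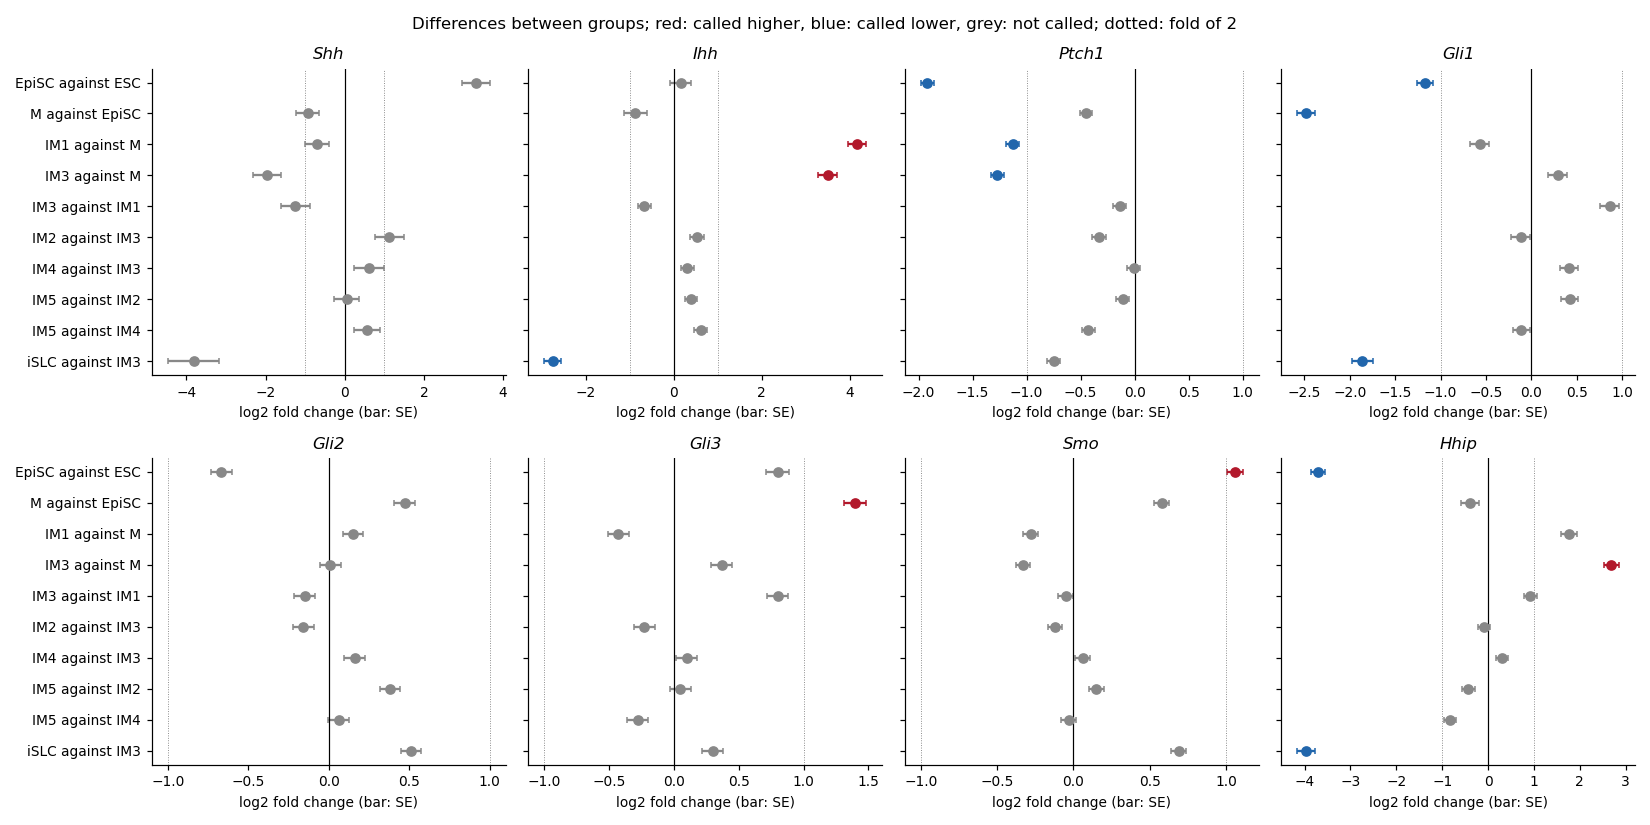
Log2 difference of each member (horizontal axis, bar for the SE of the edgeR fit) in the 10 comparisons, 1 panel per gene, red where called higher, blue where called lower and grey where not called, with dotted lines at a fold of 2. The 5 comparisons within the IM stage hold grey points only. The Shh point for iSLC rests on counts at or under the floor and is no measure of a fold.

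From IM3 to iSLC, Hhip fell by 3.97 (SE 0.189, edgeR adjusted p 2.13e-16), Ihh fell by 2.75 (SE 0.189, edgeR adjusted p 5.76e-13) and Gli1 fell by 1.86 (SE 0.115, edgeR adjusted p 6.13e-14). No member was called higher and 3 were called lower, where 10.3% of genes were higher and 8.92% lower. Ptch1 at -0.75 and Smo at 0.69, Gli2 at 0.51 and Gli3 at 0.30 passed the p threshold but were under 2-fold. With the GC offset Gli2 was at 0.18 and no longer passed. The median over the members was -1.30, which did not depend on the value of Shh, and over all genes it was 0.00. The targets Gli1, Ptch1 and Hhip thus had their lowest mean TPM of the 9 groups in iSLC, and Smo, Gli2 and Gli3 their highest.

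Other genes of the pathway were taken from a list of 38, all tested. From ESC to EpiSC 2 of 38 rose and 3 fell, where 3.75% of genes were higher and 4.32% lower, among them Gas1, a coreceptor, at 2.72, Foxa2 at 2.49 and Nkx2-9 at -1.41. The other 2 that fell, Scube1 at -1.26 and Scube2 at -1.08, are named after their values were seen, as are Foxa2 for retinoic acid and Nr2f2 in IM2 against IM3. From EpiSC to M 9 of 38 rose and 3 fell, where 6.79% of genes were higher and 7.72% lower, led by Foxf1, a mesodermal target, at 7.41, the proteoglycan Gpc3 at 3.57 and the coreceptor Boc at 3.50. From M to IM1 7 rose and 5 fell, where 9.72% of genes were higher and 5.94% lower, led by Nr2f2 at 5.48, Nkx2-9 at 5.15 and Foxf2 at 3.83, and from M to IM3 10 rose and 6 fell, where 9.26% were higher and 5.66% lower, led by Nr2f2 at 7.07, Nkx2-9 at 5.02 and Scube1, which helps release the ligands, at 2.95. Among the 6 receptors and coreceptors, Gas1 was at 1.15 to 1.27 TPM in ESC and 198 to 235 in iSLC. The median log2 difference of the 38 was -0.03, 0.11, 0.16 and -0.03 in these 4 comparisons in that order.

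Within the IM stage 2 of the 38 rose and 2 fell with retinoic acid, where 2.62% of genes were higher and 3.72% lower, Nr2f2 at 1.59 and Gas1 at 1.23 higher and Foxf2 at -1.53 and Foxa2 at -1.15 lower. With Activin A 2 rose and 2 fell in IM2 against IM3 (2.46% and 1.34% of all genes), with Foxf2 at 2.04, Lrp2, a coreceptor, at -1.76, Foxa2 at 1.22 and Nr2f2 at -1.19, and 1 rose and 2 fell in IM5 against IM4 (2.63% and 1.46%), with Foxf2 at 2.14, Lrp2 at -1.78 and Nr2f2 at -1.38. With CHIR99021, 0 of the 38 were called by edgeR in either setting, where few genes were called at all. The shares of all genes higher and lower were 0% and 0.101% in IM4 against IM3, and 0.0432% and 0.192% in IM5 against IM2. Foxf2 and Foxa2 are forkhead factors, and Nr2f2 is a nuclear receptor, all named as Hedgehog targets in some tissues.

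From IM3 to iSLC 8 of the 38 rose and 7 fell, where 10.3% of all genes were higher and 8.92% lower, the shares against which the counts below also stand. The largest were Boc at 3.54 (SE 0.0932), Foxf1 at -2.92 (SE 0.167) and Evc, a ciliary protein that acts with Smo, at 1.95 (SE 0.073). Boc TPM was 7.07, 6.13 and 5.49 in IM3 and 72.5, 72.9 and 71.5 in iSLC, with no overlap and above every other library. Of the 11 regulators between Smo and Gli 4 rose and 0 fell, with a median of 0.93, and of the 9 targets known from other tissues 0 rose and 5 fell, with a median of -1.28, against 0.00 over all genes. The targets did not all move down. Among those not called, and named after their values were seen, mean TPM was higher in iSLC for Nr2f2, Foxl1 and Ccnd1. It was 29.9 in IM3 and 58.2 in iSLC for Nr2f2, 0.947 and 2.05 for Foxl1, and 64.7 and 77.3 for Ccnd1. Dhh, with a mean under the count minimum, was at 1.43. Other marker lists moved in the same comparison. Summed TPM of 7 endoderm markers, which include Foxa2 of the targets, was 340 to 403 in IM3 and 10.5 to 17.7 in iSLC, and that of 4 endothelial markers was 62.4 to 73.8 and 3.04 to 4.14. Summed TPM of 5 Leydig cell markers was 10.3 to 12.9 in IM3 and 70.6 to 91.1 in iSLC. Most of that sum in iSLC was Cyp11a1, with a mean of 36.7, and Star, with 31.1. Cyp17a1 of the same list was not higher, at 0.927 in IM3 and 0.807 in iSLC. The part of these marker lists in the changes of members, targets and regulators was not tested.

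**Figure D5:**
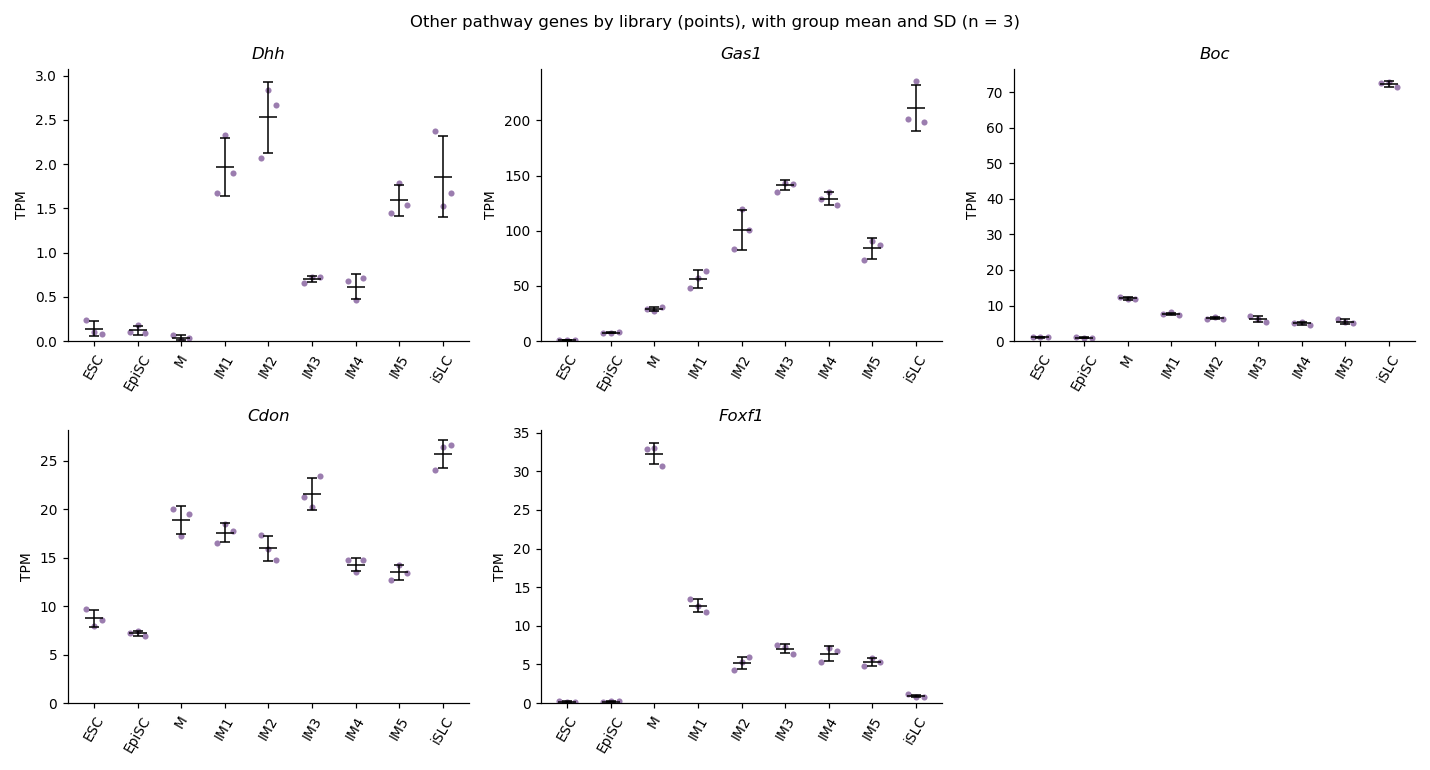
TPM of 5 other pathway genes (vertical axes from 0) in the 27 libraries by group, with points for libraries and bars for mean and SD (n = 3). Boc is 71.5 to 72.9 in iSLC and at most 12.47 elsewhere, and Dhh is at most 0.24 before the IM stage.

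Over the 9 group means of log2(TPM + 1), Gli1 went with Ptch1 (Pearson r 0.86) and against Smo (-0.94) and Gli3 (-0.87), and Smo went with Gli3 (0.90). Hhip, the other target among the members, went less closely with Ptch1 (0.46) and Gli1 (0.62), and Ihh went against Ptch1 (-0.61). Shh went against Gli2 (-0.90), but its group means were at most 1.03 TPM and its low values are uncertain. These r describe 9 points from cultures in series and carry no test. Among 13037 genes with a group mean of at least 5 TPM, those most like each member were Lgals2, Pitx1 and Fgb for Ihh (r 0.9932 to 0.9860), Gpr160, Tgm1 and Sugt1 for Ptch1 (0.9923 to 0.9905), and Tdh, Mphosph6 and Gm10451 for Gli1 (0.9842 to 0.9794). For Gli3 they were Zfp697, Gpc6 and Rhobtb3 (0.9888 to 0.9875), for Smo Ctdsp1, Pcdhgc3 and Nmnat1 (0.9883 to 0.9878) and for Gli2 AI464131, Scpep1 and Mknk1 (0.9682 to 0.9490). Hhip was nearest to Myo15b, Taf13 and Zfp518b (0.9778 to 0.9308) and Shh to Scaf4, Nudt21 and Cetn2 (0.9495 to 0.9364).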

How the data were processed

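RNA-seq of 27 mouse libraries was analysed, 3 per group, with groups and replicate numbers from the labels. Per the paper's methods and the submitters' processing notes, the authors trimmed reads with Cutadapt 1.9.1, aligned them to GRCm38 with STAR 2.5.2a and estimated abundance with RSEM 1.3.0. The expected counts the authors deposited are not normalized between libraries. The TPM values the authors deposited express each gene relative to its length and to the library's total. The effective lengths and gene lengths the authors deposited, in bases, were used as an offset and a description, and the deposited FPKM values were not used. Names and coordinates came from GENCODE M21 on the same build, which named 48349 of 48795 genes. Use of strand in counting is not given in the sources used here.

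Expected counts were rounded to whole numbers, filterByExpr kept 20839 genes, and edgeR 4.0.16 (R 4.3.3, TMM, glmQLFit, glmQLFTest) was run in 1 fit over all groups, which share 1 estimate of the spread. Calls needed a Benjamini-Hochberg p up to 0.01, a change of 2-fold or more and 100 or more normalized counts on average (counts over effective library size, times the mean of that size), over all libraries and in a compared group. A floor of 3 counts was used, which covers counting error only. The edgeR fit and its calls were tested on simulated data. Permutation tests used SciPy 1.17.1. The alternatives were RLE size factors, an effective length offset, DESeq2 1.42.0, no low-count filter, a fit of the compared groups alone, no count minimum, no fold minimum, a GC offset, a replicate block and each library left out. The members, the 38 other pathway genes and the marker lists were chosen with earlier results of these data known. Named are the members, Dhh, of the other pathway genes at most the 3 called with the largest difference in a comparison (others are marked as named after their values were seen), and the 3 genes most like each member. One gene that the rule also names is not reported here.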

Additional observations from a re-analysis of the deposited data

How the results depend on the processing

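Counts of members called stayed within 1.5 times under RLE size factors, the effective length offset, DESeq2, no low-count filter and a fit of the compared groups alone. Without the fold minimum, members called are given with the number of all 20839 genes called. They were 5 and 9645 in M against EpiSC, 5 and 9940 in IM1 against M, and 5 and 9485 in IM3 against M. Within the IM stage they were 4 and 7198 in IM3 against IM1, 2 and 5430 in IM2 against IM3, 2 and 808 in IM5 against IM2, and 4 and 6631 in IM5 against IM4. In iSLC against IM3 they were 7 and 10507. In IM3 against IM1 the count of members was 1 without the count minimum, 1 with the GC offset and 1 with the GC offset and replicate block. Of all genes, 2497, 1244 and 1248 were called in these settings. Leaving out a library left the counts at 4 in EpiSC against ESC, 2 in M against EpiSC and in IM1 against M, 3 in IM3 against M and in iSLC against IM3, and 0 in the others. Over all genes, the counts with a library left out are not given here. With all libraries kept they were 1682, 3023, 3262, 3108 and 4011 in EpiSC against ESC, M against EpiSC, IM1 against M, IM3 against M and iSLC against IM3, and 7 to 1321 in the others.

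Samples that share a replicate number deviated together by a mean correlation of 0.019 (-0.134 to 0.193 over pairs of groups), so the numbers were not taken as pairs. With the replicate block the members called were 4, 2, 2, 3 and 3 in EpiSC against ESC, M against EpiSC, IM1 against M, IM3 against M and iSLC against IM3 and 0 in the others. Over all genes the block gave 1687, 3025, 3263, 3113 and 4011 calls in the same order, and 6 to 1321 in the others. Without it 1682 were called in EpiSC against ESC.

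Some differences that no setting called changed sign. With the GC offset, Ihh was -0.19 in EpiSC against ESC and -0.02 in the interaction, Gli1 was -0.09 in the interaction, and Gli2 was -0.07 in IM1 against M, 0.10 in IM3 against IM1 and -0.23 in IM5 against IM4. Smo was 0.16 in IM3 against IM1 and Hhip 0.03 in IM2 against IM3, or 0.04 with the block. With 1 library left out, the members that changed sign were Ihh in EpiSC against ESC (-0.07 to 0.37), Gli2 in IM3 against M (-0.04 to 0.04), Shh in IM5 against IM2 (-0.15 to 0.24), Smo in IM3 against IM1 (-0.10 to 0.01), Ptch1 in IM4 against IM3 (-0.08 to 0.04), Gli3 in IM5 against IM2 (-0.01), Gli1 and Smo in IM5 against IM4 (0.01 each, Smo also 0.00), and in the interaction Ihh (-0.02 and -0.01), Gli3 (-0.11 to 0.07) and Gli1 (-0.07 to 0.13). The cause was not tested.

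The CHIR99021 difference in Gli1 share was 1.00 points on expected counts and still passed, and 0.266 as a log2 ratio with an adjusted p of 0.0519 (exact permutation), over the threshold of 0.05. It ran from 1.40 to 2.32 with a library left out. The Activin A difference ran from -0.307 to 0.607 with a library left out and changed sign without IM3 replicate 1 (-0.00323), IM5 replicate 1 (-0.307) or IM5 replicate 3 (-0.0799). Of the 3 genes most like a member, a pseudocount of 0.1 kept 0 for Shh, 1 for Ihh, 2 for Ptch1, Gli1 and Hhip and 3 for the others. Depth limits Shh in ESC, IM3, IM4 and iSLC, Ihh in M, and Hhip in M and iSLC, with at most 33 counts per library.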
